A study of Mus musculus with 27 samples.

Results

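The transcripts of 9 genes of mitochondrial fatty acid oxidation and fatty acid supply were followed in differentiating mouse pluripotent cells: Acadl, Acadm, Acadvl, Cpt1a, Cpt2, Hadha, Hadhb, Cd36 and Fabp3. A probe set, the group of short probes that reports 1 transcript on these arrays, belonged to a gene if the array annotation gave it that gene's symbol and no other. This gave 18 probe sets of the 34945 with a single symbol, and 9 of the 18193 genes measured. The study compared R1, an embryonic stem cell line, with H9, an induced pluripotent stem cell line reprogrammed with 3 transcription factors (called 3F), and 19BL, an induced line reprogrammed with 4 factors (called 4F). Each line was measured undifferentiated (day 0), when it grew with leukemia inhibitory factor on mitomycin-inactivated feeder cells, and as embryoid bodies at day 5 and day 11, made in medium with serum and without that factor. Embryoid bodies are aggregates in which pluripotent cells differentiate spontaneously into mixed cell types. Each of these 9 groups had 3 biological replicates, giving 27 arrays, whose number limits the precision. The 3 lines stand for 1 embryonic line and 1 induced line of each kind, and day 0 RNA can hold RNA of feeder cells. Values are log2 signals of the robust multi-array average (RMA), a microarray summary in which 1 unit is a 2-fold difference. They compare arrays for a given probe set and not different genes.

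Fatty acids enter cells with the help of carriers such as the scavenger receptor Cd36 and are held in the cytoplasm by binding proteins such as Fabp3. Cpt1a, on the outer mitochondrial membrane, attaches them to carnitine in the step that limits the rate of oxidation, and Cpt2, on the inner membrane, returns them to coenzyme A. Each turn of the oxidation spiral starts with a chain-length-specific acyl-CoA dehydrogenase (Acadvl for very long, Acadl for long, Acadm for medium chains), and for long chains the remaining steps run on the mitochondrial trifunctional protein, built from the Hadha and Hadhb subunits. Pluripotent cells are known for a strong use of glycolysis, and the heart for a heavy use of fatty acids.

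The RefSeq promoter table (GRCm38.p6) held a window for 9 of the 9 genes. The 250 bases before the table's start of each gene were searched on both strands for AGGTCA, the core motif bound by nuclear receptors such as the PPAR, RXR and ERR families that control these genes in other tissues. It was found in 4 of the 9 windows (Acadm, Acadvl, Cpt1a and Cd36), and in 14.0% of all 32851 windows of that length. The longer motifs TNAAGGTCA and the direct repeat of AGGTCA spaced by 1 base, which both contain AGGTCA, were in no window of the 9 genes and in 1.14% and 0.033% of all windows. Hadha and Hadhb lie head to head on chromosome 5, Hadha at chr5:30119423-30154980 on the minus strand and Hadhb at chr5:30155253-30184593 on the plus strand, with 272 bases between their starts. The first window below, read towards Hadhb, therefore covers most of the region that the subunit genes share. The windows of Acadm, Acadvl and Cpt1a are shown because these genes were lower at day 5 in every line and carry the motif, which is in capitals (TGACCT is AGGTCA read on the other strand).
Hadhb, chr5:30155003-30155252, plus strand: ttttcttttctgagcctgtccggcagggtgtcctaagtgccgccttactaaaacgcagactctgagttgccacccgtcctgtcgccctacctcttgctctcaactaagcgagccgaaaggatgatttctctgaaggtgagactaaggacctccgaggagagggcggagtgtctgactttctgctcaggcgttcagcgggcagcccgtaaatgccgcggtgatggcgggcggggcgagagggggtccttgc
Acadm, chr3:153944644-153944893, minus strand: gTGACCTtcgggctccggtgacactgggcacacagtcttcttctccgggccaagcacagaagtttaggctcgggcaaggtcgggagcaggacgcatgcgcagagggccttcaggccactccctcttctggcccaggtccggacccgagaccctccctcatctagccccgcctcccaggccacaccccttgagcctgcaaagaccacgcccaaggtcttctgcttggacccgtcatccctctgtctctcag
Acadvl, chr11:70015429-70015678, minus strand: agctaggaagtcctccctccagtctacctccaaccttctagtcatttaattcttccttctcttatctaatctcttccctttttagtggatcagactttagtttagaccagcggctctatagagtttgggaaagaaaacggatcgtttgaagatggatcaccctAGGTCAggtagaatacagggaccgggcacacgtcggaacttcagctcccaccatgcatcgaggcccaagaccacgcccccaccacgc
Cpt1a, chr19:3323051-3323300, plus strand: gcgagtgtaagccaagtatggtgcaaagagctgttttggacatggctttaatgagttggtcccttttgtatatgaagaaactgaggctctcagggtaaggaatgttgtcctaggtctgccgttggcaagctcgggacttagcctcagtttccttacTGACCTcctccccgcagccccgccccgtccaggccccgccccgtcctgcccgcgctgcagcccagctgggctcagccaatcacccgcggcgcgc
A match is a description of the letters and not evidence of binding. The motif began 249 bases before the start in Acadm, 87 in Acadvl and 94 in Cpt1a, and 228 in Cd36, whose window is not printed. The table's start of Cpt1a lies inside the span of that gene, chr19:3322326-3385735. That of Cd36 also does: its window, chr5:17835897-17836146 on the minus strand, lies within the span chr5:17781690-17888959.

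Pou5f1, a pluripotency factor, lay between 12.50 and 12.98 on every day 0 array and between 6.14 and 10.50 at day 11. Of 14 cardiomyocyte genes, 11 rose from day 0 to day 11 in R1, 11 in 3F and 3 in 4F (21.5%, 20.2% and 14.6% of all genes rose). Of 8 pluripotency genes, 6 were higher in 4F than in R1 at day 11 (24.8% of all genes called). An index of transcript integrity, the signal of 3′ minus 5′ controls for Actb and Gapdh, is larger where messages are truncated. In 4F at day 11 it was 2.69 ± 0.23 (log2, SD, n = 3). On the same day R1 had 1.94 ± 0.20 and 3F had 1.55 ± 0.23, and no array of another group reached the lowest 4F array of day 11 (2.44). The index of 3F was 1.09 ± 0.07 at day 0 and 1.10 ± 0.08 at day 5.

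By day 5, Acadm, Acadvl, Cpt1a and Hadhb had fallen and Cpt2 had risen in R1, 3F and 4F alike. From day 5 to day 11 Acadvl rose again in all 3 lines and Cpt1a in R1 and 3F, whereas Acadm rose in none. At day 5 Acadl was higher in 4F than in both other lines and Fabp3 higher than in R1. At day 11 Hadha was lower and Fabp3 higher in 4F than in both, differences that did not pass the test with the integrity index as a covariate. The words rose, fell and differed are kept for an adjusted p under 0.05 in limma, a linear model fitted across all genes.
Against day 0, 1 of the 9 genes had risen and 5 had fallen in R1 at day 5, in a comparison that called 35.7% of all genes, 16.2% as higher and 19.4% as lower. The median change of the 9 was -0.89, against -0.02 over all genes. In 3F, 1 rose and 4 fell (30.1% of all genes called, 12.9% higher and 17.2% lower, median -0.40 against -0.0039), and in 4F, 2 rose and 4 fell (21.5% called, 8.5% higher and 13% lower, median -0.77 against 0.02). At day 11 against day 0 the counts were close to the background. In R1, 2 rose and 2 fell (45.3% called, 21.5% higher and 23.8% lower, median 0.14 against -0.04), in 3F 1 rose and 3 fell (47.8% called, 20.2% higher and 27.6% lower, median -0.16 against 0.01), and in 4F none rose and 4 fell (43.3% called, 14.6% higher and 28.7% lower, median -0.48 against -0.11). From day 5 to day 11, 4 rose and none fell in R1 (27.3% called, 13.5% higher and 13.8% lower), 2 rose and 1 fell in 3F (37.6% called, 14% higher and 23.6% lower), and 1 rose and 4 fell in 4F (38.4% called, 12.5% higher and 25.9% lower). Comparisons within a line share arrays, since each day enters 2 of them.

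**Figure D1:**
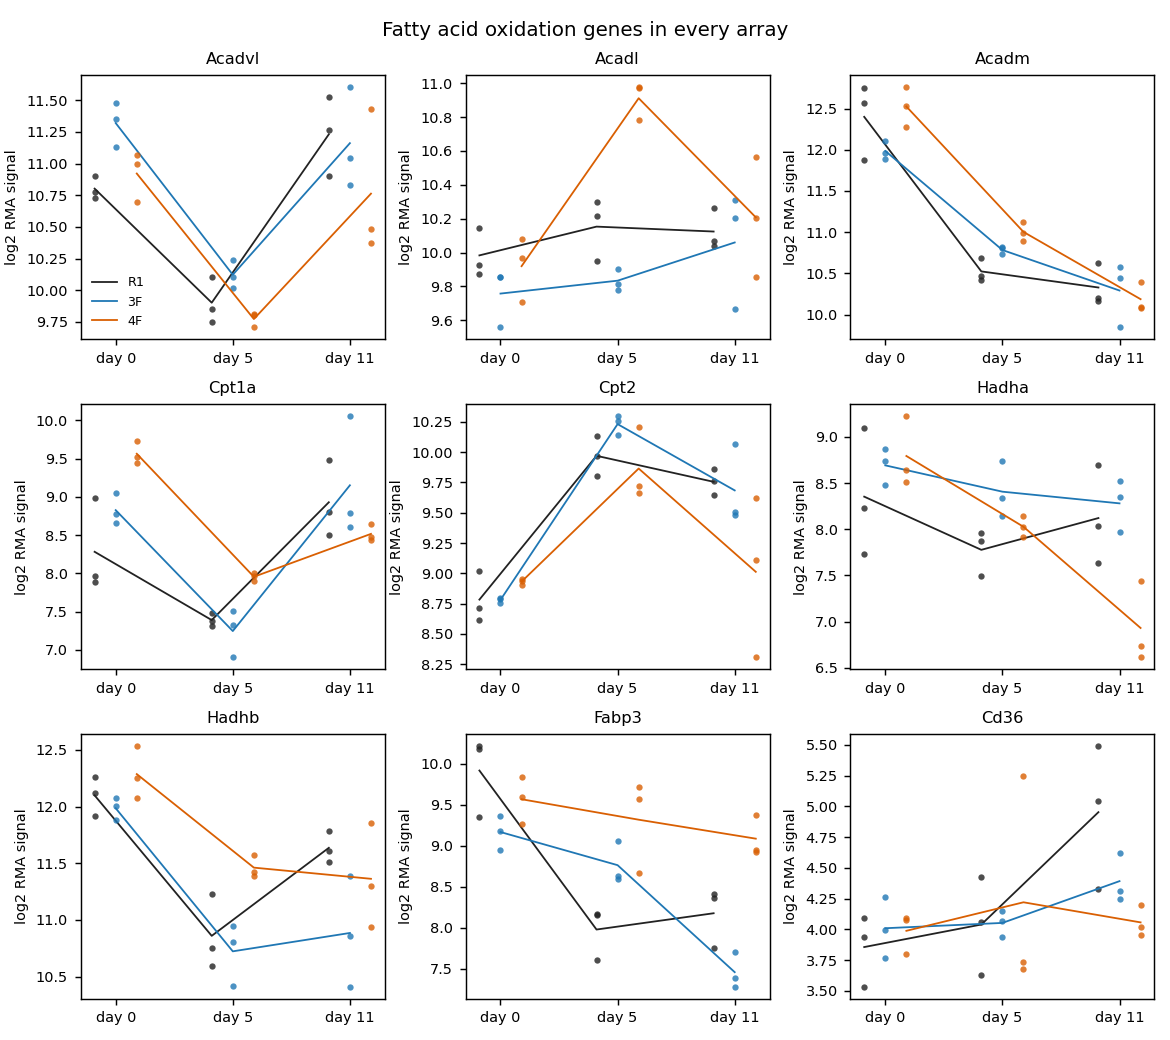
Log2 RMA signal of each gene (1 panel each) in all 27 arrays by day; points are arrays, lines join the means of 3 arrays, and colours are the lines R1, 3F and 4F. Acadm falls from 11.88 to 12.77 at day 0 to 9.85 to 10.63 at day 11, Acadvl and Cpt1a dip at day 5, and Cpt2 peaks at day 5. The vertical scale differs between panels.

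**Figure D2:**
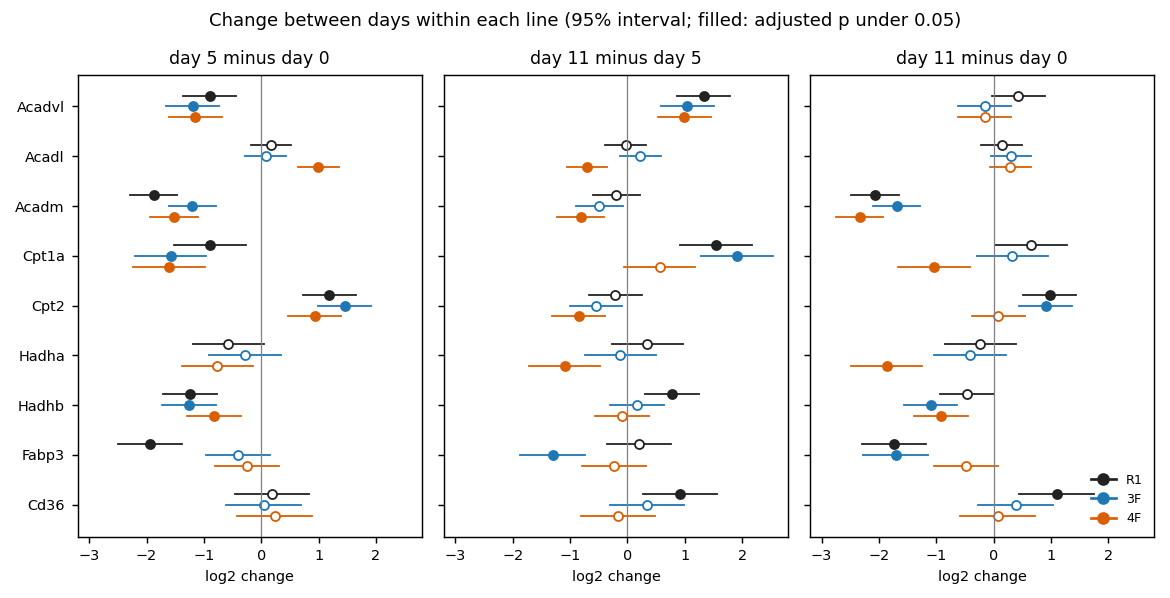
Log2 change of each gene between days within each line, with 95% intervals of the fit; filled points have an adjusted p under 0.05. Acadm lies left of 0 in every line in the left and right panels, and Hadha lies far left only in 4F in the right panel, at -1.86 against -0.23 in R1 and -0.41 in 3F.

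Acadm, the medium-chain acyl-CoA dehydrogenase, fell in every line. In R1 it read 12.75, 12.56 and 11.88 on the 3 arrays of day 0, 10.69, 10.46 and 10.42 at day 5, and 10.16, 10.63 and 10.20 at day 11. In 3F it read 12.11, 11.89 and 11.96 at day 0, 10.82, 10.73 and 10.81 at day 5, and 9.85, 10.58 and 10.45 at day 11. In 4F it read 12.28, 12.77 and 12.53, then 10.99, 11.12 and 10.90, then 10.09, 10.08 and 10.40. All 9 arrays of day 0 lay above all 18 later arrays. By day 5 the change was -1.87 ± 0.20 (SE of the fit) in R1, a 3.67-fold fall with an adjusted p of 2.86e-07, -1.20 ± 0.20 in 3F (6.70e-05) and -1.52 ± 0.20 in 4F (1.11e-05). By day 11 it was -2.07, -1.69 and -2.34, and these 6 falls held under every alternative processing tried, the 3F fall by day 11 being -1.08 after quantile normalization. The step from day 5 to day 11 passed the test in 4F alone (-0.82 ± 0.20, adjusted p = 0.00239). It measured -0.20 ± 0.20 in R1 and -0.49 ± 0.20 in 3F (adjusted p = 0.0572), where it passed without 3F day 11 replicate 2 (-0.64, adjusted p = 0.0226) or replicate 3 (-0.57, adjusted p = 0.0456). With the index as a covariate the 4F step was -0.44 (adjusted p = 0.412). At each of day 0, day 5 and day 11, no pair of lines differed in Acadm. Under some alternatives 4F was higher, than 3F at day 0 (0.54 with only the compared arrays, adjusted p = 0.0308) and than R1 at day 5 (0.48, adjusted p = 0.0438).

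Acadvl, the very-long-chain enzyme of the inner membrane, dipped and returned. In R1 it went from 10.90, 10.77 and 10.73 at day 0 to 9.85, 9.75 and 10.10 at day 5 and 10.90, 11.27 and 11.53 at day 11. In 3F the values were 11.36, 11.13 and 11.48, then 10.11, 10.24 and 10.02, then 10.83, 11.05 and 11.61. In 4F they were 11.07, 10.70 and 11.00, then 9.71, 9.80 and 9.81, then 10.37, 10.48 and 11.43. Within each line the day 5 arrays lay below all others. The fall by day 5 was 0.90 to 1.20 on the log2 scale (R1 -0.90 ± 0.22, 3F -1.20 ± 0.22, 4F -1.15 ± 0.22). The rise from day 5 to day 11 was 1.33 ± 0.22 in R1 (adjusted p = 8.75e-05), 1.04 in 3F and 0.99 in 4F. All 6 calls held under every alternative except an added 2-fold rule, which the R1 fall and the 4F rise did not reach. The 4F rise was 2.10 (adjusted p = 3.37e-05) with the index as a covariate and 0.65 without day 11 replicate 3. Between day 0 and day 11 no line passed the test; the changes were 0.43 (95% interval -0.03 to 0.89) in R1, -0.16 (-0.62 to 0.30) in 3F and -0.16 (-0.62 to 0.30) in 4F. The R1 change passed after quantile normalization (0.75, adjusted p = 0.00531) and with the index as a covariate (0.93, adjusted p = 0.000495). Without 4F day 11 replicate 3, its highest array, the 4F value was -0.49 (adjusted p = 0.0459), and with the index as a covariate it was 1.26 (adjusted p = 0.0128).

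Acadl, the long-chain enzyme, was steady in R1 and 3F and peaked in 4F. The 9 R1 arrays lay between 9.88 and 10.30 and the 9 3F arrays between 9.56 and 10.31, with groups of neighbouring days overlapping. In 4F Acadl read 9.71, 9.97 and 10.08 at day 0, 10.98, 10.97 and 10.78 at day 5, and 9.86, 10.20 and 10.57 at day 11. The 3 day 5 arrays of 4F were the highest of all 27. Acadl rose by 0.99 ± 0.17 in 4F by day 5 (1.99-fold, adjusted p = 0.000235) and fell by 0.70 ± 0.17 by day 11 (adjusted p = 0.00227), which with the index as a covariate was -0.63 (adjusted p = 0.163). The change by day 5 was 0.17 ± 0.17 in R1 and 0.08 ± 0.17 in 3F. By day 11 no line passed the test against day 0; without replicate 1 of day 11 the 3F change was 0.50 (adjusted p = 0.0179) and the 4F change 0.46 (adjusted p = 0.0413). After quantile normalization they were 0.74 (adjusted p = 0.000285) and 0.69 (adjusted p = 0.000648), against 0.30 and 0.29. A second, dim Acadl probe set changed in no comparison between days, and with the mean of both probe sets the 4F rise by day 5 was 0.52 (adjusted p = 0.00510).

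Cpt1a, the entry enzyme of the carnitine shuttle, was lowest at day 5 in every line, and in 4F it was still lower at day 11 than at day 0. It read 8.98, 7.89 and 7.97 in R1 at day 0, 7.31, 7.37 and 7.49 at day 5, and 8.50, 8.81 and 9.48 at day 11. In 3F it read 8.77, 8.65 and 9.05, then 7.51, 6.91 and 7.32, then 8.61, 8.79 and 10.05. In 4F it read 9.73, 9.52 and 9.44, then 7.90, 7.96 and 8.01, then 8.47, 8.44 and 8.64. The day 5 arrays were the lowest of each line, and the 4F arrays of day 0 lay above every day 11 array of 4F. By day 5 Cpt1a fell by 1.58 ± 0.30 in 3F (2.99-fold, adjusted p = 0.000305) and by 1.61 ± 0.30 in 4F (adjusted p = 0.000519). In R1 the fall of 0.89 ± 0.30 had an adjusted p of 0.0236 and was lost without day 0 replicate 1 (-0.54, adjusted p = 0.179), day 5 replicate 1 (0.0644) or day 5 replicate 2 (0.0559), and with the index as a covariate (-0.64, adjusted p = 0.0518) or only these 6 arrays fitted (0.0506). With the mean of the 3 probe sets it was -1.70 (adjusted p = 6.89e-05). From day 5 to day 11 it rose by 1.54 ± 0.30 in R1 and by 1.90 ± 0.30 in 3F (3.74-fold, adjusted p = 2.59e-05). The 4F rise of 0.56 ± 0.30 had an adjusted p of 0.151; with only these 6 arrays fitted it was 0.00725, and 0.0162 with the replicate number as a block too. The 4F rise was 1.87 (adjusted p = 0.00399) with the index as a covariate, and with the mean of the probe sets 0.79 (adjusted p = 0.0301). Against day 0, Cpt1a at day 11 was at 0.65 (95% interval 0.02 to 1.27, adjusted p = 0.0869) in R1, 0.32 (-0.30 to 0.95) in 3F and -1.05 (-1.67 to -0.42, adjusted p = 0.00681) in 4F. The R1 value passed without day 0 replicate 1 (adjusted p = 0.00912) or day 11 replicate 1 (0.0398). After quantile normalization the R1 and 3F values were 0.67 (adjusted p = 0.0437) and 0.66 (adjusted p = 0.0454). They were 1.25 (adjusted p = 0.00141) and 0.88 (adjusted p = 0.0169) with the index as a covariate, and the 4F value then turned to 0.64 (adjusted p = 0.436).
The 2 dimmer Cpt1a probe sets showed the dip too. The first went from 6.79, 5.86 and 5.94 to 3.92, 3.17 and 3.64 in R1 by day 5, a change of -2.62 ± 0.33 (adjusted p = 3.01e-06). Its day 5 values are close to the floor of the arrays, so the size of that change is limited by the floor. By day 11 it stood at 6.49, 6.46 and 7.14. The changes by day 5 were -2.71 in 3F and -1.89 in 4F for that probe set and -1.58, -1.46 and -1.56 in R1, 3F and 4F for the other, and all 6 passed the test. Both also rose in 4F from day 5 to day 11 (0.89, adjusted p = 0.0365, and 0.91, adjusted p = 0.0215). Both are of a class in which some probes can match other transcripts, as is the representative Hadhb probe set.

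Genes of fibroblasts and feeder cells moved over the days in a like order. The mean level of 10 such genes was 9.26 ± 0.49 in R1 at day 0, 6.94 ± 1.02 at day 5 and 11.73 ± 0.25 at day 11 (log2, SD, n = 3). It was 10.84, 6.87 and 11.73 in 3F, and 9.85, 6.20 and 9.75 in 4F. From day 0 to day 5, 6 of the 10 fell and 1 rose in R1, and 8 fell in 3F and 9 in 4F. Over all genes, 19.4%, 17.2% and 13% fell, and 16.2% rose in R1. The defining marker Col1a1 overlapped between these days in R1 and 3F. The dip was not particular to this list. The mean of 5 platelet genes was 7.03, 6.18 and 8.18 in R1, 7.25, 6.04 and 6.82 in 3F, and 7.32, 6.15 and 6.86 in 4F. That of 10 macrophage genes was also lowest at day 5 in R1 and 3F. The part of these cell types in the course of Acadvl and Cpt1a was not tested. In RNA from whole cultures, fewer cells of a type and less RNA per cell cannot be told apart.

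Cpt2, the inner-membrane partner of Cpt1a, went the opposite way at day 5. It read 9.02, 8.72 and 8.62 in R1 at day 0, 10.14, 9.81 and 9.97 at day 5, and 9.76, 9.65 and 9.86 at day 11. In 3F it read 8.80, 8.76 and 8.79, then 10.26, 10.14 and 10.30, then 9.50, 9.48 and 10.07. In 4F it read 8.95, 8.90 and 8.94, then 9.67, 9.72 and 10.21, then 8.31, 9.11 and 9.62. Every day 5 array lay above every day 0 array, and in R1 and 3F the day 11 arrays also lay above day 0, whereas those of 4F spread around it. Cpt2 rose by day 5 by 1.19 ± 0.22 in R1 (adjusted p = 0.000201), 1.45 ± 0.22 in 3F (2.73-fold, adjusted p = 2.54e-05) and 0.93 ± 0.22 in 4F (adjusted p = 0.00385). At day 11 it was still 0.97 ± 0.22 higher than at day 0 in R1 and 0.90 ± 0.22 higher in 3F. All 5 calls held under every alternative except an added 2-fold rule, which only the R1 and 3F rises by day 5 reached. With the mean of the probe sets the day 11 differences were 0.64 in R1 and 0.42 in 3F (adjusted p = 0.0489). In 4F it fell by 0.85 ± 0.22 from day 5 to day 11 (adjusted p = 0.00387, 0.0842 with only these 6 arrays fitted, and a change of -0.50 without day 11 replicate 1), and the day 11 level differed from day 0 by 0.08 (95% interval -0.38 to 0.54). With the index as a covariate the 4F step from day 5 to day 11 was 0.02 (adjusted p = 0.977) and the change from day 0 to day 11 was 1.20 (adjusted p = 0.0376). The 3F step from day 5 to day 11, -0.55 ± 0.22 (adjusted p = 0.0564), passed without 3F day 11 replicate 3 (-0.74, adjusted p = 0.0147) and under 4 further alternatives (adjusted p 0.0133 to 0.0497).

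The subunits of the trifunctional protein were not tested against each other. Both fell in 4F from day 0 to day 11, but by day 5 only Hadhb passed the test, in each line. Hadhb, which carries the thiolase of the complex, read 11.92, 12.26 and 12.12 in R1 at day 0, 10.75, 11.23 and 10.60 at day 5, and 11.79, 11.51 and 11.61 at day 11. In 3F it read 11.88, 12.00 and 12.07, then 10.42, 10.94 and 10.81, then 10.41, 11.39 and 10.86. In 4F it read 12.08, 12.25 and 12.53, then 11.58, 11.43 and 11.38, then 10.94, 11.30 and 11.85. Day 0 arrays lay above all later arrays in each line. Hadhb fell by day 5 by 1.24 ± 0.23 in R1 (adjusted p = 0.000159), 1.26 ± 0.23 in 3F (0.000156) and 0.82 ± 0.23 in 4F (0.0108), the last not without 4F day 0 replicate 3 (-0.70, adjusted p = 0.0615) nor after quantile normalization (-0.39, adjusted p = 0.217), which put the R1 fall at -0.79. It rose from day 5 to day 11 in R1 (0.78 ± 0.23, adjusted p = 0.0122), a call lost without day 5 replicate 1 (0.0513), day 5 replicate 3 (0.0648) or day 11 replicate 1 (0.0509). At day 11 it remained lower than at day 0 in 3F (-1.10 ± 0.23) and 4F (-0.92 ± 0.23), while R1 stood at -0.46 (95% interval -0.93 to 0.01), which passed with arrays at the same median (-0.66, adjusted p = 0.0126) and with only these 6 arrays fitted (0.0385). After quantile normalization the changes were -0.47 (adjusted p = 0.0697) in 3F and -0.25 (adjusted p = 0.361) in 4F. With the mean of the probe sets they were -0.51 in 3F and -0.20 (adjusted p = 0.266) in 4F. With the index as a covariate the 4F change was -1.31 (adjusted p = 0.058).

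Hadha, the subunit with the hydratase and the long-chain dehydrogenase, has 1 probe set. It read 9.10, 8.23 and 7.73 in R1 at day 0, 7.96, 7.50 and 7.88 at day 5, and 7.63, 8.03 and 8.70 at day 11. In 3F it read 8.73, 8.48 and 8.86, then 8.15, 8.34 and 8.74, then 7.96, 8.35 and 8.53. In 4F it read 8.52, 9.22 and 8.64, then 8.02, 8.14 and 7.92, then 6.62, 6.73 and 7.44. The 3 arrays of 4F at day 11 were the lowest of all 27, and in R1 and 3F the days overlapped. Hadha fell in 4F by 1.86 ± 0.30 from day 0 to day 11 (3.64-fold, adjusted p = 2.19e-05) and by 1.10 ± 0.30 from day 5 to day 11 (adjusted p = 0.00559). By day 5 the 4F change was -0.77 ± 0.30 (adjusted p = 0.0713), which passed with arrays at the same median (-0.81, adjusted p = 0.0388) and with only these 6 arrays fitted (0.0201). In R1 and 3F no change passed the test, and from day 0 to day 11 they measured -0.23 (95% interval -0.85 to 0.39) and -0.41 (-1.03 to 0.21). Without its day 0 replicate 3 the R1 change by day 5 was -0.89 (adjusted p = 0.0306), against -0.58 with it (adjusted p = 0.148), and with the index as a covariate it rose in R1 from day 5 to day 11 (0.72, adjusted p = 0.0303). The 4F falls moved with the index: with it as a covariate the change from day 0 was -0.03 (adjusted p = 0.977) and that from day 5 was 0.33 (adjusted p = 0.613). Since no other group reached the index of 4F at day 11, index and group cannot be told apart there.

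**Figure D3:**
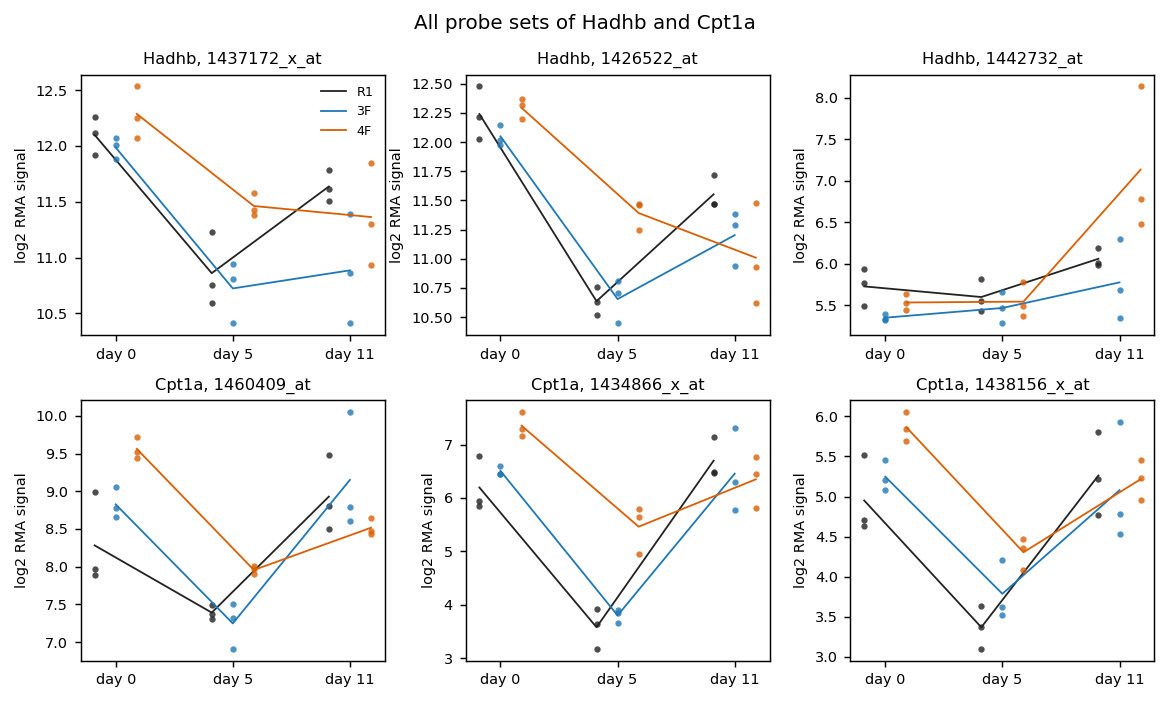
Log2 RMA signal of the 3 probe sets of Hadhb (upper row) and of Cpt1a (lower row) by day; points are arrays, lines join the means of 3 arrays. The third, dim Hadhb probe set rises in 4F at day 11 to 6.48 to 8.14 while the other Hadhb probe sets do not, and all 3 Cpt1a probe sets dip at day 5.

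The Hadhb probe sets gave different answers for 4F at day 11. The second Hadhb probe set fell by 1.60 ± 0.17 in R1 by day 5 (adjusted p = 3.70e-07), by 1.40 in 3F and by 0.90 in 4F, and at day 11 it stood at -0.69 in R1 (adjusted p = 0.00219), -0.85 in 3F and -1.29 in 4F against day 0. The third, dim probe set lay between 5.28 and 6.30 in all 24 arrays outside 4F at day 11. On the 4F arrays of day 11 it read 8.14, 6.78 and 6.48, higher than day 0 by 1.60 ± 0.28 (adjusted p = 6.20e-05) and in each case above every other array. With the mean of the 3 probe sets in place of the representative one, the 4F change of Hadhb from day 5 to day 11 was 0.37 (adjusted p = 0.0406) in place of -0.10, and that from day 0 to day 11 was -0.20 (adjusted p = 0.266).

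Fabp3, the heart-type fatty acid binding protein, was highest in undifferentiated R1. It read 10.18, 10.22 and 9.35 in R1 at day 0, 8.16, 8.17 and 7.60 at day 5, and 8.37, 7.75 and 8.41 at day 11. In 3F it read 9.18, 9.36 and 8.95, then 8.63, 9.06 and 8.59, then 7.28, 7.70 and 7.39. In 4F it read 9.26, 9.60 and 9.84, then 9.71, 9.57 and 8.67, then 8.95, 8.93 and 9.38. R1 was low from day 5 and 3F at day 11, and neighbouring days overlapped in 4F. Whether the change by day 5 differed between lines was not tested. Fabp3 fell in R1 by 1.94 ± 0.27 by day 5 (3.84-fold, adjusted p = 7.83e-06) and stood at -1.74 ± 0.27 by day 11 (1.25e-05). In 3F it measured -0.40 ± 0.27 by day 5 (adjusted p = 0.300) and fell by 1.71 ± 0.27 by day 11 (adjusted p = 1.44e-05). These 3 falls held under every alternative, but with the mean of the probe sets they were -0.93, -0.82 and -0.57. In 4F the change by day 11 was -0.48 (95% interval -1.04 to 0.08, adjusted p = 0.162). With only the compared arrays fitted and the replicate number as a block, this change (adjusted p = 0.041) and the 3F change by day 5 (0.0139) passed. In R1 and 3F, where Fabp3 fell, 11 of 14 cardiomyocyte genes rose over the same days (21.5% and 20.2% of all genes rose by day 11). The second Fabp3 probe set moved the other way: it rose from day 0 to day 11 by 0.57 ± 0.12 in 3F (adjusted p = 0.000363) and by 0.47 ± 0.12 in 4F (adjusted p = 0.00214), and measured 0.10 ± 0.12 in R1.

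Cd36, the fatty acid receptor of muscle, fat, endothelium and macrophages, was near the floor of the arrays, with 6.3% of genes dimmer. It read 3.94, 3.53 and 4.09 in R1 at day 0, 4.42, 4.06 and 3.63 at day 5, and 5.04, 5.49 and 4.33 at day 11. All 3F arrays lay between 3.77 and 4.62, and all 4F arrays but 1 between 3.68 and 4.20. That array, 4F day 5 replicate 3, read 5.25. Both R1 means, 3.86 at day 0 and 4.95 at day 11, lay under the 40th percentile of signal (5.375), so the sizes of the changes are limited by the floor and no fold is given. Cd36 rose in R1 by 1.10 ± 0.31 from day 0 to day 11 (adjusted p = 0.00590), which was lost without day 11 replicate 2 (0.83, adjusted p = 0.0516) and with the index as a covariate (0.86, adjusted p = 0.0688). From day 5 to day 11 it rose by 0.91 ± 0.31 (adjusted p = 0.0322), lost without day 5 replicate 2 (0.0695) or 3 (0.148) or day 11 replicate 1 (0.0859) or 2 (0.192), with the index as a covariate (0.78, adjusted p = 0.0856), and with only these 6 arrays fitted (0.0746). In 3F and 4F the change from day 0 to day 11 was 0.38 (95% interval -0.27 to 1.03) and 0.07 (-0.58 to 0.72). A second probe set rose by 0.47 ± 0.17 in R1 (adjusted p = 0.0283), and the third measured 0.10 ± 0.10.
Genes of macrophages, platelets and endothelium were set beside Cd36. From day 0 to day 11, 21.5% of all genes rose in R1, 20.2% in 3F and 14.6% in 4F. Of 8 endothelial genes, 5 rose in R1 by day 11, 7 in 3F, where Cd36 did not pass the test, and 2 in 4F. At day 11, 6 of them were lower in 4F than in R1 (24.8% of all genes called). The endothelial marker Pecam1 did not rise in R1, at 6.27, 6.34 and 5.83 at day 0 and 5.56, 5.57 and 5.48 at day 11. Of 5 platelet genes, 4 rose in R1, 1 in 3F and none in 4F, and 1 fell in 3F and 1 in 4F. Of 10 macrophage genes, 8 rose in R1 by day 11, none in 3F and none in 4F, where 2 and 3 fell. Their mean level was 6.29 to 6.65 on the R1 arrays of day 0 and 6.89 to 9.38 at day 11, against 5.76 to 6.65 in 3F and 5.65 to 6.12 in 4F. The receptor gene Csf1r read 9.71, 10.41 and 8.32, and the platelet and macrophage chemokine Pf4 read 11.36, 11.42 and 8.82, on R1 replicates 1, 2 and 3 of day 11, with replicate 3 lowest as for Cd36. On the same arrays the erythroid gene Hbb-y read 13.73, 12.97 and 9.44, and the visceral endoderm gene Afp 12.37, 12.10 and 10.36. A low replicate 3 was thus not particular to macrophage and platelet genes, though Tnnt2, Col1a1 and Adipoq were not lowest there. Of 4 adipocyte genes none rose, and Adipoq lay between 4.13 and 4.25 in R1 at day 11. The part of these cell types in the Cd36 result was not tested.

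Between lines, the undifferentiated cells differed in 1 gene. None of the 9 genes differed between 3F and R1 at day 0 in limma (7.21% of all genes called; 2 at an unadjusted p under 0.05), 1 was higher in 4F than in R1 (2.15% called), and none differed between 4F and 3F (4.24% called; 2 at an unadjusted p under 0.05). The 1 gene was Cpt1a, at 9.73, 9.52 and 9.44 in 4F against 8.98, 7.89 and 7.97 in R1, a difference of 1.28 ± 0.30 (2.43-fold, adjusted p = 0.0229) with no overlap. The call held without R1 day 0 replicate 1 but was lost without any 1 of the other 5 arrays (adjusted p 0.0552 to 0.156) and with only the compared arrays fitted. Against 3F, the 4F level of Cpt1a was higher by 0.74 (95% interval 0.11 to 1.36, adjusted p = 0.206), and passed with only the compared arrays fitted (0.00777) and with the index as a covariate (adjusted p = 0.0254). Without R1 day 0 replicate 1, Cpt1a also differed between 3F and R1 (0.90, adjusted p = 0.0413), as did Fabp3 without replicate 3 (-1.03, adjusted p = 0.0479, against -0.75 and 0.0927 with it).

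At day 5, Acadl was higher in 4F than in both other lines, Fabp3 than in R1 alone and Hadhb than in 3F alone. None of the 9 genes differed between 3F and R1 in limma (0.649% of all genes called; 2 at an unadjusted p under 0.05). In 4F, 2 were higher than in R1 (12.5% called) and 2 higher than in 3F (17.1% called). Acadl was higher in 4F than in R1 by 0.76 ± 0.17 (adjusted p = 0.00446) and than in 3F by 1.08 ± 0.17 (0.000122). Fabp3 was higher than in R1 by 1.34 ± 0.27 (2.53-fold, adjusted p = 0.00181). These 3 differences held under every alternative except an added 2-fold rule, which that of Acadl from R1 did not reach. With the mean of the probe sets they were 0.41, 0.61 and 0.77. The index at that day was 1.62 ± 0.08 in 4F, 1.66 ± 0.34 in R1 and 1.10 ± 0.08 in 3F. Cpt1a did not overlap between 4F and either line. It was at 0.57 ± 0.30 against R1 (adjusted p = 0.267), which passed with the mean of the probe sets (1.13, adjusted p = 0.0103) and with only the compared arrays fitted (0.0232). Against 3F it was at 0.71 ± 0.30 (adjusted p = 0.120), which passed with the mean of the probe sets (0.96, adjusted p = 0.0217), with only the compared arrays (0.0162) and with the index as a covariate (1.34, adjusted p = 0.00617). Against 3F, Fabp3 was higher by 0.56 ± 0.27 (adjusted p = 0.185), and by 0.88 (adjusted p = 0.0210) without 4F day 5 replicate 3. Hadhb was higher in 4F than in 3F by 0.74 ± 0.23 (adjusted p = 0.0257), a call lost without 3F day 5 replicate 1 (0.133) or 3 (0.0536) or 4F day 5 replicate 1 (0.107) or 2 (0.0692), and with the index as a covariate (0.59, adjusted p = 0.211). Against R1, Hadhb was at 0.60 (adjusted p = 0.0873), which passed without R1 day 5 replicate 2 (0.79, adjusted p = 0.0446).

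At day 11, Hadha, Fabp3 and Cpt2 differed between 4F and both other lines, but none did with the index as a covariate. None of the 9 genes differed between 3F and R1 in limma (2.48% of all genes called; 2 at an unadjusted p under 0.05), with Hadhb at -0.75 (adjusted p = 0.0819), a difference that passed without 3F day 11 replicate 2 (adjusted p = 0.00820). In 4F, 1 was higher and 3 lower than in R1 (24.8% called), and 1 was higher and 2 lower than in 3F (30.5% called), a count close to the background. Hadha was lower in 4F than in R1 by 1.19 ± 0.30 (2.28-fold, adjusted p = 0.00531) and than in 3F by 1.35 ± 0.30 (adjusted p = 0.00173). Fabp3 was higher in 4F than in 3F by 1.63 ± 0.27 (3.10-fold, adjusted p = 0.000122), and than in R1 by 0.91 ± 0.27 (adjusted p = 0.0159), the latter not without R1 day 11 replicate 2 (0.102) or 4F day 11 replicate 3 (0.0619). With the mean of the probe sets these differences were 0.77 and 0.53. Cpt2 was lower than in R1 by 0.74 ± 0.22 (adjusted p = 0.0167) and than in 3F by 0.67 ± 0.22 (0.0256). Without 4F day 11 replicate 1, its lowest array, these were -0.39 (0.179) and -0.32 (0.227), and they were also lost without R1 day 11 replicate 3 (0.0550) or 3F day 11 replicate 3 (0.118), and with only the compared arrays fitted (0.133 and 0.294). Cd36 was lower than in R1 by 0.90 ± 0.31 (adjusted p = 0.0392), a call lost without any of 5 of the 6 arrays (adjusted p 0.0732 to 0.213), all but R1 day 11 replicate 3, and 9 of 10 macrophage genes were lower in 4F there too.
Without 4F day 11 replicate 3, Acadvl was lower in 4F than in R1 (-0.80, adjusted p = 0.00325) and 3F (-0.73, adjusted p = 0.00621), against -0.47 and -0.40 with it, neither of which passed. Cpt1a was at -0.63 against 3F (adjusted p = 0.113), and at -0.90 (0.0405) without 3F day 11 replicate 1. Hadhb was at 0.48 against 3F (adjusted p = 0.112), and passed without 3F day 11 replicate 2 (0.73, 0.0167) or 4F day 11 replicate 1 (0.69, 0.0425). These 2 comparisons share the 4F arrays. With the index as a covariate none of the 9 genes differed between 4F and either line. Hadha then stood at -0.20 (adjusted p = 0.790) against R1 and 0.17 (0.837) against 3F, Cpt2 at -0.13 and 0.26, Fabp3 at 0.85 (0.201) and 1.53 (0.0792), and Cd36 at -1.27 (0.0834) against R1. Without the covariate they were -1.19 and -1.35 for Hadha, -0.74 and -0.67 for Cpt2, 0.91 and 1.63 for Fabp3, and -0.90 for Cd36. No other array reached the 4F index of day 11, so index and line cannot be told apart in that fit. The share of all genes called in it is not given here.

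**Figure D4:**
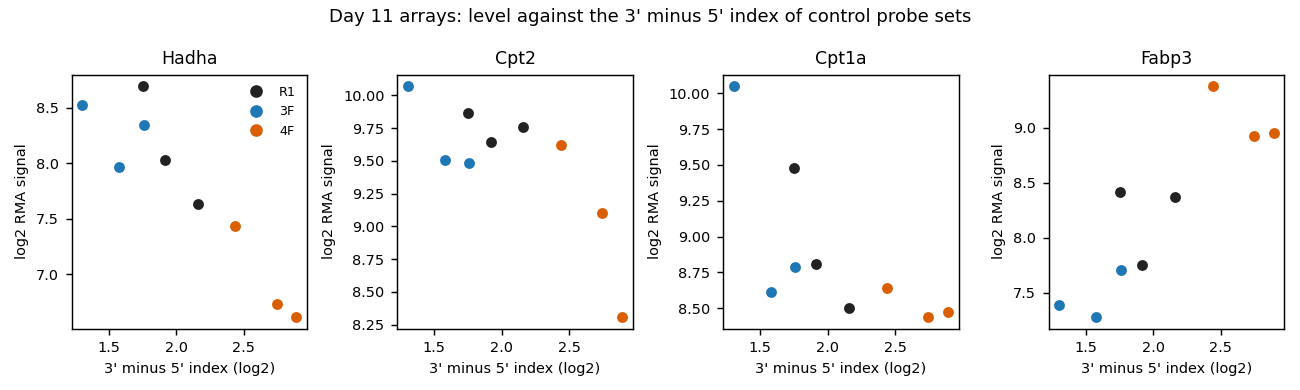
Log2 RMA signal of Hadha, Cpt2, Cpt1a and Fabp3 on the 9 arrays of day 11 (vertical) against the 3′ minus 5′ index (horizontal, log2) of the same array, with colours for the lines. The 4F arrays lie at an index of 2.44 to 2.89 and the others at 1.31 to 2.16; within 4F the array with the lowest index has the highest Hadha (7.44) and Cpt2 (9.62).

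The change from day 0 to day 11 was set against that of another line for each gene. Between 3F and R1 none of the 9 changes differed in limma (1.91% of all genes called; none at an unadjusted p under 0.05). Between 4F and R1, 1 was higher and 2 were lower (15.4% called), and between 4F and 3F likewise 1 and 2 (9.89% called), the comparisons sharing the 4F arrays. The change of Cpt1a in 4F differed from that in R1 by -1.69 ± 0.43 (adjusted p = 0.0103) and differed by -1.37 ± 0.43 from 3F (adjusted p = 0.0439). Hadha differed by -1.63 ± 0.42 from R1 (adjusted p = 0.0126) and -1.45 ± 0.42 from 3F (0.0325). Fabp3 differed by 1.26 ± 0.38 from R1 (adjusted p = 0.0281) and 1.23 ± 0.38 from 3F (0.0435).
Several of these calls depended on single arrays. The difference of Cpt1a from 3F was lost in 9 of 12 omissions of a single array (all but 3F day 11 replicates 1 and 2 and 4F day 11 replicate 3), with adjusted p values of 0.0548 to 0.0968. That of Fabp3 from 3F was lost in 10 of 12 (all but 3F day 11 replicate 2 and 4F day 0 replicate 3; 0.0528 to 0.104). That of Hadha from 3F was lost in 6 of 12 (3F day 0 replicates 1 and 2, 3F day 11 replicate 3, 4F day 0 replicate 2, and 4F day 11 replicates 1 and 2; 0.0529 to 0.0980). That of Fabp3 from R1 was lost in 6 of 12 (R1 day 0 replicates 1 and 2, R1 day 11 replicate 2, 4F day 0 replicate 1, and 4F day 11 replicates 1 and 3; 0.0505 to 0.0860). The differences of Cpt1a and Hadha from R1 held in all 12, but that of Hadha was lost with only the compared arrays fitted (adjusted p = 0.0621, and 0.0947 with the replicate number as a block too). With only the compared arrays that of Cpt1a from 3F was lost as well (0.0858), and with the mean of the probe sets those of Cpt1a (-0.93, adjusted p = 0.134) and Fabp3 (0.57, adjusted p = 0.0734) from 3F. Without 4F day 11 replicate 3, the Cpt2 change also differed from R1 (-1.20, adjusted p = 0.00361, against -0.89 and 0.0573 with it) and 3F (-1.13, 0.00890, against -0.82 and 0.0985), and Acadvl from R1 (-0.92, 0.0144, against -0.59 and 0.228). Cpt2 also differed from R1 without R1 day 0 replicate 1 (-1.01, 0.0334), Cd36 from R1 without R1 day 11 replicate 3 (-1.34, 0.0445, against -1.03 and 0.123), and Acadm from 3F without 3F day 11 replicate 1 (-0.87, 0.0409, against -0.64 and 0.154). With the index as a covariate none of the 9 changes differed between 4F and either line. Index and line cannot be told apart there, since no other array reached the 4F index of day 11.

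Across the 9 group means, which share their lines and arrays, the pairs of genes correlated at -0.82 to 0.82. The highest values were those of Acadvl and Cpt1a (Pearson r = 0.82, n = 9 groups), Acadm and Hadhb (0.81), Acadm and Fabp3 (0.76), Hadhb and Fabp3 (0.73), and Acadm and Hadha (0.68). The lowest were those of Cpt2 with Hadhb (-0.82), Acadm (-0.66) and Fabp3 (-0.62). Acadl and Cd36 stayed between -0.58 and 0.41 with every other gene. The subunit genes Hadha and Hadhb, in spite of their shared region, correlated at 0.40. Among 4825 genes above the 40th percentile of mean level whose group means had an SD of at least 0.5, the most similar to each gene were named. They were Parp9 and Psmd7 for Acadm (0.99 and 0.99), Nptn and Mmd for Acadvl (0.99 and 0.99), Sall2 and Cnnm4 for Acadl (0.89 and 0.83), and Acer2 and the cholesterol exporter gene Abca1 for Cpt1a (0.93 and 0.93). For Cpt2 they were H1f10 and Zfp282 (0.99 and 0.98), for Hadha Rpn2 and Ctsz (0.96 and 0.95), and for Hadhb Rchy1 and the macrophage marker Cd68 (0.98 and 0.95). For Fabp3 they were Nuf2 and Tex30 (0.97 and 0.96), and for Cd36 Irf8, a myeloid transcription factor, and Agtr1a (0.96 and 0.94). Cd36 lay near the floor, at 4.95 in R1 at day 11 and at 3.86 to 4.39 in the other groups. Its correlations therefore rest largely on 1 group.

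Other genes of mitochondrial oxidation moved both ways. From day 0 to day 5, 35.7% of all genes were called in R1, 30.1% in 3F and 21.5% in 4F. From day 0 to day 11 the shares were 45.3%, 47.8% and 43.3%. Of 19 such genes, 1 rose and 5 fell from day 0 to day 5 in R1 (median -0.11, against -0.02 over all genes), 3 and 2 in 3F (0.0046 against -0.0039), and none and 5 in 4F (-0.19 against 0.02). Over the whole course, 6 rose and 5 fell from day 0 to day 11 in R1 (median -0.01, against -0.04 over all genes), 6 and 4 in 3F (0.14 against 0.01), and 3 and 8 in 4F (-0.39 against -0.11). Acat1, the mitochondrial acetoacetyl-CoA thiolase, rose by 1.31 ± 0.17 in R1, 1.44 in 3F and 0.88 in 4F, and the thiolase Acaa2 by 1.30 in R1 and 1.27 in 3F. Acad9, a dehydrogenase that also helps to assemble respiratory complex I, fell in R1 (-0.80), 3F (-1.06) and 4F (-1.51). The enoyl-CoA isomerase Eci1 fell in R1 (-0.93) and 4F (-1.24). At day 11, 7 of the 19 were lower and none higher in 4F than in R1, among them Acaa2 (-0.81) and Acadsb (-0.71), in the comparison that called 24.8% of all genes and in which the index was 2.69 in 4F and 1.94 in R1. The part of the index in the list counts was not tested. Of 10 genes of the carnitine shuttle and of acyl-CoA activation, 3 rose and 2 fell by day 11 in R1, 4 and 2 in 3F, and 3 and 1 in 4F. The shares of all genes called were again 45.3%, 47.8% and 43.3%. The carnitine transporter Slc22a5 rose by 0.70, 0.64 and 1.25 and the brain-type Cpt1c by 1.26, 0.80 and 0.86 in R1, 3F and 4F, and the acyl-CoA synthetase Acsl5 fell in R1 (-1.18), 3F (-1.48) and 4F (-1.25).

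In peroxisomes, which shorten very long chains, 2 of 12 genes rose and 3 fell by day 11 in R1, 2 and 4 in 3F, and 1 and 4 in 4F (45.3%, 47.8% and 43.3% of all genes called). Pecr, a trans-enoyl-CoA reductase, fell in R1 (-1.39), 3F (-1.47) and 4F (-2.20). The thiolase Acaa1b fell in R1 (-1.66) and 3F (-1.73) and rose in 4F (0.79), and was higher in 4F than in R1 at day 11 (2.75 ± 0.23, adjusted p = 8.10e-08). Its means at day 11 were 4.87 in R1 and 4.73 in 3F, under the 40th percentile of signal, so these sizes are limited by the floor. Its close paralog Acaa1a rose by 0.45 in 3F, to a mean of 10.43 at day 11, where the Acaa1b probe set read 4.73. Whether the Acaa1b probe set also reports Acaa1a was not tested. Of 13 other genes of fatty acid uptake and binding, 7 rose and 3 fell in R1, 4 and 4 in 3F, and 3 and 5 in 4F, beside the same shares of all genes. Slc27a2, a transporter and very-long-chain acyl-CoA synthetase, fell by 5.91 ± 0.54 in R1 (adjusted p = 1.14e-08), to a mean of 5.51 close to that percentile, and also in 3F (-4.83) and 4F (-3.66). Lpl, the lipase that frees fatty acids from lipoproteins, rose by 2.53, 2.96 and 0.81, and the lipoprotein receptor gene Vldlr by 2.51, 2.22 and 2.83.

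Among 19 regulators of oxidation, 4 rose and 5 fell by day 11 in R1, 1 and 5 in 3F, and 2 and 6 in 4F (45.3%, 47.8% and 43.3% of all genes called). Nrf1, a transcription factor of mitochondrial genes, fell in R1 (-1.96 ± 0.19), 3F (-2.52) and 4F (-1.48), and Tfam, the mitochondrial DNA packaging factor, in R1 (-1.62) and 3F (-1.77). The nuclear receptor gene Hnf4a rose by 0.67, 1.05 and 0.71. By day 5, 35.7% of all genes were called in R1, 30.1% in 3F and 21.5% in 4F, with 16.2%, 12.9% and 8.5% higher. Of 14 genes of fatty acid synthesis, 7 rose and none fell in R1 by day 5, 9 and none in 3F, and 3 and 1 in 4F, at the day when Acadm, Acadvl, Cpt1a and Hadhb were lower than at day 0. By day 11, 3 had risen and 4 fallen in R1, 4 and 5 in 3F, and 3 and 6 in 4F, with the malic enzyme Me1 up by 2.81, 1.56 and 2.18 and the elongase Elovl1 up by 1.97, 1.09 and 0.69. At day 11, 9 of the 14 were lower and none higher in 4F than in R1 (24.8% of all genes called), again at an index of 2.69 against 1.94. Glycolysis genes fell in every line by day 11: 12 of 17 in R1, 13 in 3F and 15 in 4F (23.8%, 27.6% and 28.7% of all genes fell). None rose, and the medians were -0.80, -1.23 and -0.94, against -0.04, 0.01 and -0.11 over all genes. Hk2, a hexokinase, fell in R1 (-1.69) and 3F (-1.84), and the pyruvate kinase gene Pkm in 4F (-1.94). List members that were not analysed here are not in these counts.

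**Figure D5:**
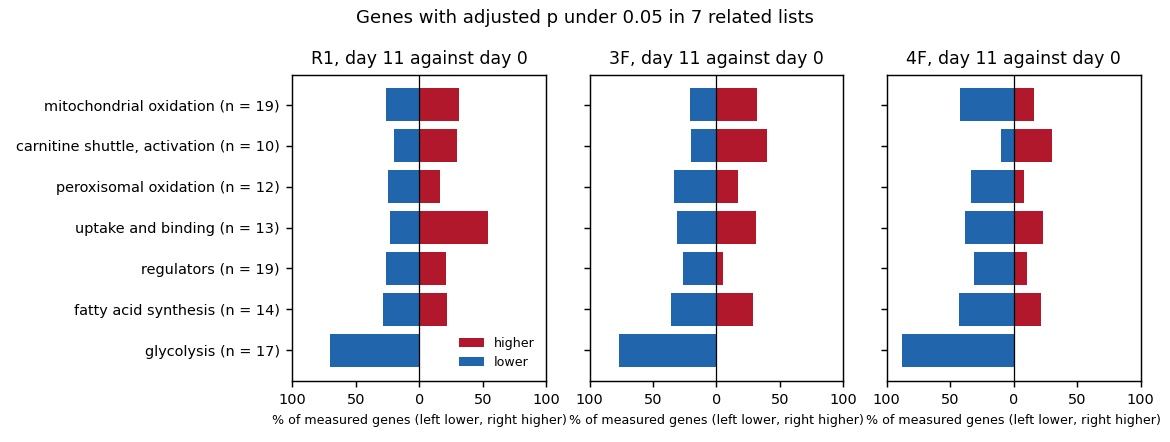
Share of measured genes with an adjusted p under 0.05 from day 0 to day 11 in 7 lists related to fatty acid oxidation, by line; bars to the right are genes that rose, bars to the left genes that fell, in percent of the n genes of the list. Glycolysis has bars to the left only (12, 13 and 15 of 17 genes), and mitochondrial oxidation has bars on both sides in each line. Over all genes, 45.3% were called in R1, 47.8% in 3F and 43.3% in 4F.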

How the data were processed

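The deposited values are log2 RMA signals of Affymetrix arrays, made by the authors per the submitters' processing notes; the version and settings of RMA are not given in the sources used here. Among its 45101 probe sets, 64 were array controls, 34945 had a single gene symbol, 932 several and 9160 none. Each of 18193 genes was represented by its brightest probe set by mean over the 27 arrays. Array medians lay between 5.91 and 6.10. Same-group arrays differed with an SD of 0.183 to 0.702 (log2, over genes, 27 pairs), and no pair was identical. The labels call the replicates biological; the number of arrays limits the precision.

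A limma model (limma 3.58.1, R 4.3.3) with 9 group means was fitted across all genes and all arrays, so the groups share 1 estimate of the spread per gene. Days were compared within lines, lines within days, and lines in how far they changed from day 0 to day 11, with Benjamini-Hochberg adjustment over all genes in each comparison and a threshold of 0.05. Summaries and plots used matplotlib 3.10.9, pandas 2.3.3 and numpy 2.4.6 under Python 3.11.15, and the fit was tested on simulated data. The index is the mean over Actb and Gapdh control probe sets of the 3′ minus the 5′ log2 signal.

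Named were the 9 genes with all their probe sets, the 2 largest significant rises and falls of each list, defining markers, and the 2 genes most like each of the 9. These genes and the lists were chosen with earlier results of these data known. The alternatives were arrays set to the same median, quantile normalization, genes left out unless above the 40th percentile (5.375) in at least 3 arrays (14698 genes, 8 of the 9, without Cd36), averaged probe sets per gene, every probe set fitted as a feature of its own, an added 2-fold rule, only the compared arrays, robust trended variance, the replicate number as a block, the index as a covariate, and each array left out. The 2-fold rule was applied to the counts of genes and to single genes. It is left out of the totals of single genes that passed or failed. The labels state no pairing of replicate numbers. Residuals of same-numbered arrays correlated above 0.1 in every pair in 3 of 18 comparisons: day 11 against day 5 in 4F (0.129, 0.105 and 0.152), 4F against R1 at day 0 (0.480, 0.252 and 0.328) and 3F against R1 at day 11 (0.120, 0.492 and 0.392).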

Additional observations from a re-analysis of the deposited data

Results flagged for a closer look

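In 3 genes the change from day 0 to day 11 in 4F differed from that in both other lines, by limma's test of the difference between the changes, the comparisons sharing the 4F arrays. For Cpt1a the difference was -1.69 against R1 and -1.37 against 3F: it fell in 4F, while the changes in R1 and 3F were 0.65 and 0.32. For Hadha it was -1.63 against R1 and -1.45 against 3F. For Fabp3 it was 1.26 against R1 and 1.23 against 3F: it fell in R1 (-1.74) and 3F (-1.71) and measured -0.48 in 4F. The 3′ minus 5′ index rose from day 0 to day 11 from 1.31 to 2.69 in 4F, from 1.45 to 1.94 in R1 and from 1.09 to 1.55 in 3F; with it as a covariate none of the 6 differences passed the test, and its part in them cannot be told apart from that of the line.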

How the results depend on the processing

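The added 2-fold rule was left out of the following counts of single genes. Of the 59 changes of single genes that passed the test, 31 passed under every other alternative and 28 failed under at least 1. Of 130 that did not pass, 39 passed under at least 1. Of 231 counts of significant genes recomputed, 201 stayed within 1.5 times. With an added 2-fold rule the count went from 4 to 2 for R1 day 11 against day 5 (11.6% of all genes called), from 6 to 3 for 4F day 5 against day 0 (7.07%), from 5 to 1 for 4F day 11 against day 5 (15.8%), from 2 to 1 for 4F against R1 (5.45%) and against 3F (7.48%) at day 5, and from 4 to 1 for 4F against R1 at day 11 (8.31%). With arrays at the same median it went from 3 to 5 for 3F day 11 against day 5, and from 0 to 1 for 3F against R1 and 4F against 3F at day 0. That scaling moved the median of all genes for R1 day 11 against day 0 from -0.04 to -0.24. With quantile normalization 4F against 3F at day 0 went from 0 to 1, and the changes of 4F against 3F from 3 to 5. With the mean of probe sets 3F against R1 at day 0 went from 0 to 1, 4F against R1 and against 3F at day 5 from 2 to 4, and the changes of 4F against 3F from 3 to 1. With only the compared arrays, 4F against R1 went from 1 to 0 at day 0, from 2 to 4 at day 5 and from 4 to 2 at day 11, and 4F against 3F from 0 to 2 at day 0 and from 2 to 4 at day 5. With the index as a covariate, day 11 against day 5 in 4F went from 5 to 2 and 4F against 3F at day 0 from 0 to 1, while 4F against R1 at day 11 fell from 4 to 0, 4F against 3F from 3 to 0, and the changes of 4F against each line from 3 to 0.

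Directions turned with the index as a covariate for Acadvl (1.26) and Cpt1a (0.64) in 4F from day 0 to day 11, Cpt2 (0.0195) and Hadha (0.33) in 4F from day 5 to day 11, and Cpt2 (0.26) and Hadha (0.17) in 4F against 3F at day 11, and with the mean of probe sets for Hadhb in 4F from day 5 to day 11 (0.37). Beyond the covariate's own construction, the cause was not tested.

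The replicate number as a block left every count within 1.5 times. It changed no call in the 3 comparisons whose numbers correlated, and elsewhere brought the fall of Cpt2 in 3F from day 5 to day 11 (-0.55, adjusted p = 0.0438) and its difference in change between 4F and R1 (-0.89, adjusted p = 0.0434) past the threshold. A block with only the compared arrays, chosen after seeing the data, moved the count from 0 to 1 for 3F against R1 and from 0 to 3 for 4F against 3F at day 0, from 4 to 2 for 4F against R1 at day 11, and from 3 to 1 for the changes of 4F against R1.

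Leaving out 1 array at a time gave, for day 5 against day 0, 5 to 7 genes in R1, 5 in each case in 3F and 5 to 6 in 4F. For day 11 against day 0 it gave 3 to 5, 4 to 5 and 4 to 5, and for day 11 against day 5 it gave 2 to 4, 3 to 5 and 5 in each case. For 3F against R1, 4F against R1 and 4F against 3F it gave 0 to 1, 0 to 1 and 0 at day 0, then 0, 2 to 3 and 1 to 3 at day 5, then 0 to 1, 2 to 3 and 2 to 4 at day 11, and 0, 2 to 4 and 0 to 3 for the changes. Cd36, with 6.3% of genes dimmer, is limited by its signal.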
